A study of Mus musculus with 37 samples.

Results

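The miR-34 and miR-449 family was followed with 5 TaqMan quantitative PCR assays, miR-34a, miR-34aN, miR-34c, miR-34cN and hsa-miR-449, out of 459 assays run on each of 37 preparations of mouse stem and progenitor cells. The 5 were chosen by their exact assay names. An assay whose name ends in N was taken as a second assay of the same miRNA, since the files do not say what the letter stands for. The values are threshold cycles (Ct), where a lower Ct means more RNA and 40 means that no amplification was seen, and an assay is called detected below Ct 35. Assays are not calibrated against each other, so levels are compared within an assay.

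The runs fell into 12 populations. From wildtype C57/Bl6 muscle came 4 runs of sorted satellite cells of the tibialis anterior (MuSC), described as quiescent stem cells, and 4 of myoblasts from forelimb and hindlimb muscle (Myoblast), the proliferating committed progenitors. From wildtype marrow came 4 runs of sorted long-term blood stem cells (LT-HSC, C57/Bl6) and 5 of Kit+ Sca-1+ Lin- progenitors, of which 3 were C57/Bl6 (KSL-B6) and 2 were mixed 129Sv/J:C57Bl6 (KSL-Mixed). Cells with these surface markers were also taken from C57/Bl6 mice carrying an AML-ETO9a transgene (KSL-ETO, 3 runs) and from mixed-strain mice lacking the Rb family, a triple knockout (KSL-RbTKO, 2 runs). Leukaemia driven by a transduced MLL-AF10 oncogene, in mice labelled wildtype C57/Bl6, gave 3 runs of the Kit+ stem cell fraction (MLL-LSC) and 3 of the Kit- fraction derived from it (MLL-Prog). Wildtype neural stem and progenitor cells from the subventricular zone and dentate gyrus gave 3 runs freshly isolated at postnatal day 0 (NSPC-P0), 3 of neurospheres expanded from them in culture (NSPC-P0-Exp) and 3 of primary neurospheres of adult mice (NSPC-Adult). The strain of NSPC-Adult is written C57/Bl6, C57/Bl7 and C57/Bl8 in its 3 runs. Ages other than adult and postnatal day 0, the driver of the AML-ETO9a transgene, the means of deleting the Rb genes and any pooling of animals are not given in the labels.

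Members of the family share the seed, the stretch at the 5′ end that pairs with target messenger RNAs, and so can repress overlapping targets. The miR-34 genes are direct transcriptional targets of the tumour suppressor p53 and restrain proliferation through targets that include cyclin-dependent kinases and Bcl2. The miR-449 genes are known as targets of E2F1 and, with miR-34b and miR-34c, act in the formation of multiciliated cells such as those of the ependyma and choroid plexus.

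The RefSeq sequences (GRCm38.p6) below are shown because the shared seed defines the family, and capitals mark the seed, bases 2 to 8 of the mature miRNA.
mmu-miR-34a-5p: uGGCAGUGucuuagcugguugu
mmu-miR-34b-5p: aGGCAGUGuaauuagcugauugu
mmu-miR-449a-5p: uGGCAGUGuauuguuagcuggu
mmu-miR-449c-5p: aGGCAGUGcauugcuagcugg
Mir34c hairpin: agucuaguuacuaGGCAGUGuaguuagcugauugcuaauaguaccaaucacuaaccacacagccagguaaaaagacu
In the hairpin the capitals mark the same letters at positions 14 to 20. Of the 1679 distinct mature names in the RefSeq table, which is not complete, these 4 carry this seed, and mature miR-34c-5p was not used here. Outside the seed they differ. Counted position by position from the 5′ end with no gap allowed, miR-34a-5p matched miR-449a-5p at 15 of 22 positions and miR-34b-5p at 11 of 22. The 2 miR-449 sequences matched at 18 of 21. An inserted base shifts all later positions in such a count, so the counts do not rank how alike the sequences are. Mir34a lies alone on chromosome 4 (mature strand at chr4:150068473-150068494, plus strand). Mir34c and Mir34b lie on the minus strand of chromosome 9 with 451 bases between their hairpins, the Mir34c hairpin at chr9:51103034-51103110. Mir449c and Mir449a lie on the plus strand of chromosome 13, 1442 bases apart, with mature miR-449a-5p at chr13:113037549-113037570. The assay hsa-miR-449 carries a human name, and the files do not say which mouse miR-449 it reads.

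Between 61 and 143 assays were detected per run, fewest in KSL-RbTKO (61 to 65) and in MuSC (65 to 90), so a member of low abundance was easier to miss there. To set runs side by side, a member is also given as cycles after the run's mean Ct over the 28 assays detected in all 37 runs. Samples held 20 to 1000 cells, per the labels, and in these bulk preparations fewer cells of a type and less RNA per cell cannot be told apart. Of the 3 muscle assays miR-206 read Ct 28.7 to 29 in MuSC and 20.7 to 22 in Myoblast. miR-1 (35.5 to 40) and miR-133a (38.3 to 40) were undetected in all MuSC runs, and miR-1 was detected in all 4 Myoblast runs and miR-133a in 3. Outside muscle miR-206 was also detected in the 6 leukaemia runs, at 31.1 to 33.1, and in the 3 NSPC-Adult runs, at 32.4 to 34.3. The neural label was not met by miR-124a or miR-9, defining miRNAs of neurons and neural progenitors: both miR-124a assays and mmu-miR-9 stayed at Ct 35 or later in all 9 neural runs. Of the 5 neural assays the other 2 were detected, miR-128a at 32.8 to 34.9 in NSPC-P0, 33.3 to 36.2 in NSPC-P0-Exp and 29.4 to 30.8 in NSPC-Adult, and mmu-miR-137 at 30.4 to 33.1 in NSPC-P0 alone of the 3; miR-128a was also at 29.3 to 30.4 in the leukaemia runs. The neural runs are therefore called by their labels only.

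All members but miR-34aN were detected only in Myoblast or neural runs, and no MuSC run detected any member. miR-34aN was also detected in runs of LT-HSC, KSL-B6 and KSL-ETO. miR-34a was detected in 7 of 37 runs, miR-34aN in 18, miR-34c in 10, miR-34cN in 4 and hsa-miR-449 in 4. In blood and leukaemia the only member detected in any run was miR-34aN. The 3 assays of miR-34b, the neighbour of miR-34c, were detected in 0 of 37 runs, although the assay named miR-34b gave late signal, Ct 36.3 to 39.9, in the 4 Myoblast runs.

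**Figure D1:**
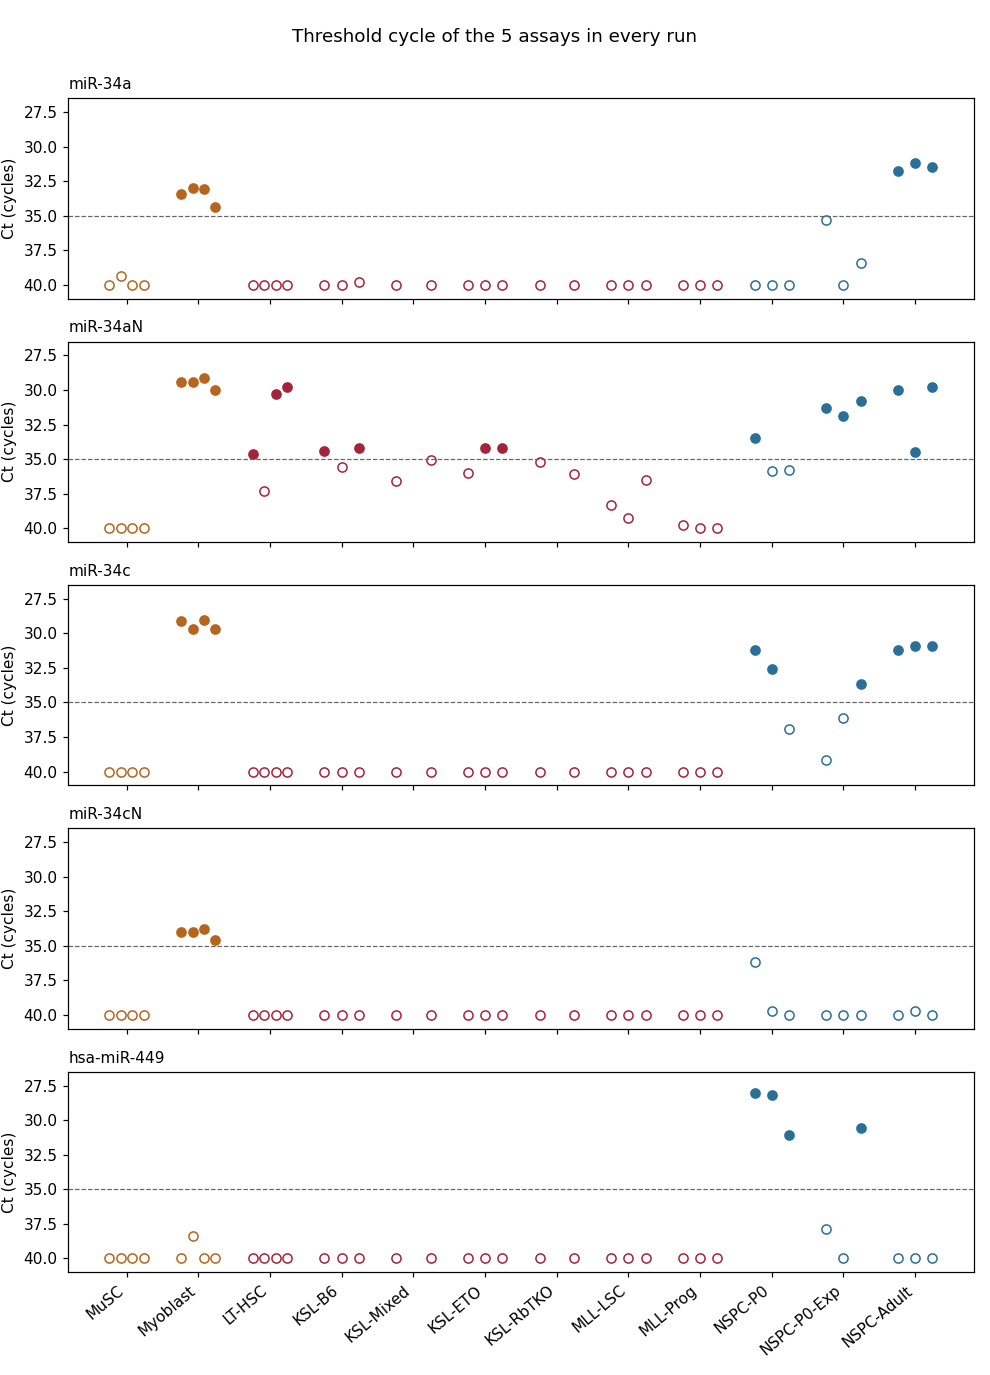
Threshold cycle (y axis, inverted so that more RNA is higher) of each of the 5 assays in all 37 runs, by population (x axis; brown muscle, red blood, blue neural). Filled points lie below Ct 35 (dashed line) and open points do not; Myoblast is the one population in which miR-34a, miR-34aN, miR-34c and miR-34cN are all filled in every run.

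miR-34a, the best known p53 target of the family, was present in 2 populations. Its Ct was 33.4, 33, 33.1 and 34.4 in Myoblast and 31.8, 31.2 and 31.5 in NSPC-Adult. In the other 10 populations the lowest Ct was 35.3, in the first NSPC-P0-Exp run, and of the 30 undetected values 26 were 40 and the other 4 were late signal at 35.3, 38.4, 39.4 and 39.8. Relative to the common assays miR-34a came 6.07 ± 0.301 cycles later in NSPC-Adult (SD, n = 3) and 7.24 ± 0.488 cycles later in Myoblast (SD, n = 4), and the ranges, 5.73 to 6.30 and 6.71 to 7.89, did not overlap.

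miR-34aN was the most widely detected member. Every run detected it in Myoblast (Ct 29.4, 29.4, 29.1 and 30), NSPC-P0-Exp (31.3, 31.9 and 30.8) and NSPC-Adult (30, 34.5 and 29.8). The second NSPC-Adult run stood apart from the others by more than 4 cycles, while its miR-34a was the lowest Ct of the 3. LT-HSC split, with Ct 34.6 and 37.3 in runs 1 and 2 and 30.3 and 29.8 in runs 3 and 4. Some runs detected it in NSPC-P0 (33.5, 35.9 and 35.8), KSL-B6 (34.4, 35.6 and 34.2) and KSL-ETO (36, 34.2 and 34.2). No run did in KSL-Mixed (36.6 and 35.1), KSL-RbTKO (35.2 and 36.1), MLL-LSC (38.3, 39.3 and 36.5), MLL-Prog (39.8, 40 and 40) or MuSC, where all 4 runs read 40.

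Relative to the common assays, miR-34aN came first in LT-HSC runs 4 and 3, at 2.35 and 2.72 cycles, and then in Myoblast at 3.24 ± 0.172 cycles (SD, n = 4). NSPC-P0-Exp followed at 5.00 ± 0.388 cycles (SD, n = 3) and NSPC-Adult at 6.0 ± 2.62 (SD, n = 3). Myoblast (3.11 to 3.49) and NSPC-P0-Exp (4.61 to 5.38) did not overlap, whereas NSPC-P0-Exp and NSPC-Adult (4.48 to 9.03) did. On the log2 level above a floor common to all runs, 4 populations were above it, in the order Myoblast (1.99 ± 0.172), LT-HSC (1.35 ± 1.56), NSPC-Adult (0.49 ± 0.427) and NSPC-P0-Exp (0.283 ± 0.314), and each overlapped the next in range.

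miR-34c, made from the chromosome 9 cluster, was strongest in Myoblast, at Ct 29.1, 29.7, 29 and 29.7. In raw Ct NSPC-Adult followed, at 31.2, 30.9 and 30.9. Fresh NSPC-P0 gave 31.2, 32.6 and 36.9 and NSPC-P0-Exp 39.2, 36.1 and 33.7, so 2 runs of the first and 1 of the second detected it. All runs of MuSC, blood and leukaemia read 40. Relative to the common assays it came 3.14 ± 0.217 cycles later in Myoblast (SD, n = 4) and 5.57 ± 0.136 later in NSPC-Adult (SD, n = 3), with no overlap of ranges. NSPC-P0 run 1, at 4.40 cycles, came before every NSPC-Adult run (5.43 to 5.70). On the log2 level above the common floor, Myoblast (2.09) was followed by NSPC-P0 (0.275, from run 1 alone), and NSPC-Adult lay at the floor.

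miR-34cN was detected in Myoblast alone, at Ct 34, 34, 33.8 and 34.6. Its next values were 36.2 in the first NSPC-P0 run and 39.7 in 1 run each of NSPC-P0 and NSPC-Adult, and all others were 40.

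hsa-miR-449 was the neonatal neural member. It read Ct 28, 28.2 and 31.1 in NSPC-P0 and 37.9, 40 and 30.6 in NSPC-P0-Exp. It was at 40 in every run of NSPC-Adult, MuSC, blood and leukaemia, and at 38.4 in 1 Myoblast run and 40 in the other 3. KSL-RbTKO, which lacks the Rb proteins that hold E2F factors in check, read 40 in both runs, at the lowest number of detected assays of all populations.

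The second assay of miR-34a did not track the first. Where both miR-34a assays were detected, in 7 runs, miR-34a came 4 ± 0.327 cycles after miR-34aN in Myoblast (SD, n = 4) but 0.0667 ± 2.92 cycles after it in NSPC-Adult (SD, n = 3), with a range of -3.3 to 4.4 over the 7. In 11 further runs only miR-34aN was detected, among them LT-HSC runs 3 and 4, where it stood near its Myoblast level and miR-34a read 40. Which of the assays reads the mature miRNA more closely was not tested. Both miR-34c assays were detected in the 4 Myoblast runs, where the Ct of miR-34c minus that of miR-34cN was -4.725 ± 0.287 cycles (SD, n = 4), and miR-34c alone was detected in 6 runs. In those with signal from both before cycle 40 the difference was -5 in NSPC-P0 run 1, -7.1 in NSPC-P0 run 2 and -8.8 in NSPC-Adult run 2, with miR-34cN at Ct 36.2, 39.7 and 39.7.

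**Figure D2:**
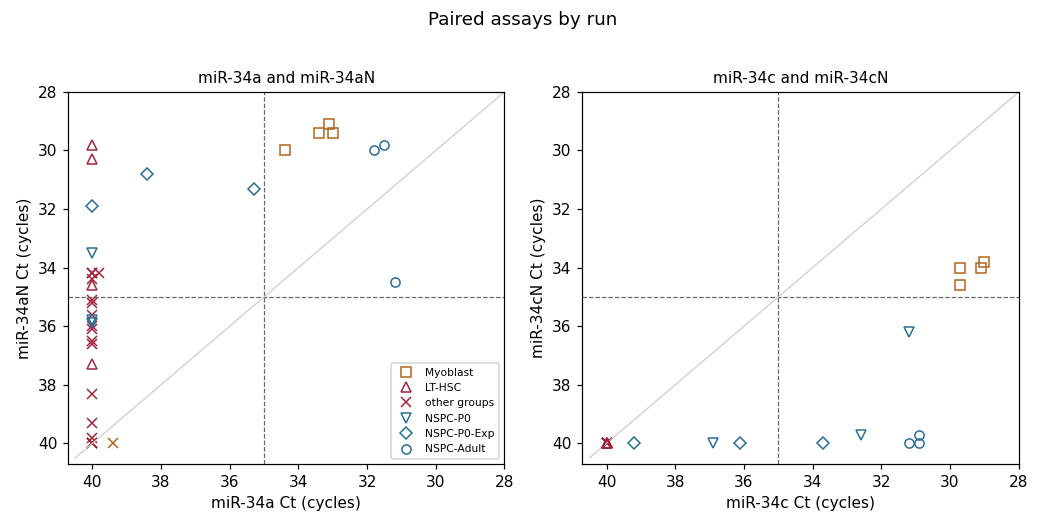
Ct of each assay (x axis) against the second assay of the same name (y axis) in 37 runs, both axes inverted, with the detection limit of Ct 35 dashed and equality as a grey line. On the left, Myoblast runs lie together above the line, NSPC-Adult run 2 lies below it, and LT-HSC, NSPC-P0 and NSPC-P0-Exp runs lie along the left side where miR-34a reads 35.3 or later.

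For the comparisons, Ct was turned into a log2 level centred on the assays detected in all runs compared, values under the lowest level measurable in all of them were set to that floor, and all assays detected in every run of at least 1 group were tested with limma and Benjamini-Hochberg adjustment at 0.05. A difference against a group lying wholly at the floor is a lower bound in size. Where only some runs of a group were set to the floor, that group's mean is an upper bound. An assay detected in every run of only 1 group entered the test through that group, so its direction was fixed or favoured by this rule. Labels do not say whether replicates came from separate animals, so p-values measure the spread between these samples.

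Between quiescent MuSC and proliferating Myoblast, all 4 assays of miR-34a and miR-34c went from undetected in every MuSC run to detected in every Myoblast run, and hsa-miR-449 was detected in neither. Of these 4, miR-34aN and miR-34c gave a p-value and both passed, in a comparison in which 61.4% of 127 assays were called, 5 of the 127 being constant at the floor. miR-34aN was at least 2.64 ± 0.09 log2 units higher (SE, n = 4 and 2 samples, limma adjusted p = 1.50e-05) and miR-34c at least 2.74 ± 0.16 (SE, limma adjusted p = 7.31e-05). The groups did not overlap. Both assays were undetected in MuSC and entered the test only through Myoblast, so their direction was fixed by the detection rule. miR-34a and miR-34cN could not be tested, because the floor set by the sparser MuSC samples lay above their Myoblast levels, and with the detection limit at Ct 38 they too passed, at 1.29 ± 0.31 (adjusted p = 0.0169) and 0.67 ± 0.11 (adjusted p = 0.00494). No member passed with the limit at Ct 32.

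Of the 17 assays of other p53-linked miRNAs on the panel, 5 were tested between Myoblast and MuSC, 2 were higher and 0 lower, with a median difference of 0.04 against 1.09 over all tested assays. The 2 were miR-125b, which targets p53 itself, at 2.01 ± 0.22 (SE, limma adjusted p = 0.00104) and miR-16, an antiproliferative miRNA whose processing p53 enhances, at 1.16 ± 0.25 (SE, limma adjusted p = 0.0122). Some markers of other cells moved in the same direction: endothelial miR-126 read 40 in all 4 MuSC runs and 30 to 31.2 in Myoblast, 1 of 2 endothelial assays, while miR-126* stayed undetected. Mesenchymal miR-214 went from 31.6 to 35.5 in MuSC to 25.6 to 26 in Myoblast, and the summed level of the 4 mesenchymal assays from 3.12 to 4.49 up to 6.22 to 6.41. The other tested mesenchymal assay, miR-199a*, was not called, at 0.66 ± 0.34 (SE, limma adjusted p = 0.143). Of the 7 blood assays 3 were tested. miR-155 was called higher, at 0.57 or more, while miR-150 (-1.69) and mmu-miR-155 (-0.29) lay lower without a call. Their part in the result was not tested.

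Members moved in opposite directions when neonatal neural cells were cultured. From NSPC-P0 to NSPC-P0-Exp hsa-miR-449 was lower and miR-34aN higher, both members tested, in a comparison in which 46.8% of 126 assays were called. miR-34aN was 2.60 ± 0.44 log2 units higher (SE, n = 3 and 3, limma adjusted p = 0.00767), and the groups did not overlap. NSPC-P0 runs 2 and 3, at Ct 35.9 and 35.8, were set to the floor, so the difference is a lower bound. The call of miR-34aN was lost with the limit at Ct 32 and with all 12 groups in 1 fit. hsa-miR-449 was lower, at -4.62 ± 1.35 (SE, limma adjusted p = 0.0404), and the scaled groups did not overlap, although the raw Ct of the third NSPC-P0-Exp run, 30.6, was below that of the third NSPC-P0 run, 31.1. NSPC-P0-Exp runs 1 and 2, at 37.9 and 40, were set to the floor, so this size is cut short too. With the limit at Ct 38 it was -6.58 and not called.

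The fall of hsa-miR-449 sat close to the threshold. Leaving out NSPC-P0 run 1 or 2, or NSPC-P0-Exp run 1 or 2, raised its adjusted p to between 0.126 and 0.137 and ended the call. Leaving out NSPC-P0-Exp run 3 gave -5.82 (adjusted p = 0.0133). That run detected 143 assays against 123 in each of the other 2 and stood nearer to the fresh cells in some miRNAs but not in others. It read miR-34c at 33.7 against 39.2 and 36.1, and miR-204, abundant in choroid plexus, at 29.5 against 40 and 40. For miR-34aN it stood farthest from the fresh cells, at 30.8 against 31.3 and 31.9. Blood miR-223 was nearest to them in run 2, at 27.6 against 40 in run 1 and 31.3 in run 3.

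Several markers of other cell types fell in the comparison in which hsa-miR-449 did. miR-204 read Ct 21, 24.3 and 24.8 in NSPC-P0 and gave a log2 difference of -9.99 ± 1.70 in NSPC-P0-Exp (SE, limma adjusted p = 0.00767). The second assay, mmu-miR-204, read 26.6, 36.1 and 40 in NSPC-P0 and was not detected in the other neural runs. Endothelial miR-126 read 23.1, 23.4 and 23.3 in NSPC-P0 and 29, 29.4 and 26.3 in NSPC-P0-Exp, and miR-126* went from 28.9, 28.7 and 29 to 40, 39.8 and 32.7. Of the 7 blood assays 4 were tested and 2 were lower: miR-150, from 25.7 in all 3 NSPC-P0 runs to 32.3, 40 and 30.8, at -7.40 ± 0.88 (SE, limma adjusted p = 0.00253), and miR-142-3p, from 31.9, 33.6 and 31.8 to 40 in all 3, at -2.48 ± 0.51 or lower (adjusted p = 0.0127). The blood assay mmu-miR-155 was higher, at 2.11 ± 0.26 (adjusted p = 0.00260), and neural mmu-miR-137 was lower, at -3.05 ± 0.76 or lower (adjusted p = 0.0247). Both endothelial assays were called lower, with a summed level of 8.83 to 9.0 in NSPC-P0 and 2.35 to 5.16 in NSPC-P0-Exp. Of the 8 epithelial assays miR-375 was tested and was lower, from 27.7, 26.6 and 30.8 to 35.7, 37.9 and 32.9, while miR-141, miR-200a and miR-200b were undetected in both. Single NSPC-P0-Exp runs, but no NSPC-P0 run, detected other epithelial assays: miR-200bN at 30.9 and miR-200cN at 34.4 in run 2, and miR-200c at 33.7 in run 1. In NSPC-Adult miR-204 was at 28.6, 30.9 and 31.1 with hsa-miR-449 at 40 in all 3 runs. miR-204 and miR-126 were not particular to the cells they are named for. Outside the neural runs miR-204 was detected in MuSC runs 1 and 2, at log2 levels of 4.11 and 4.22 above the common floor. miR-126 read Ct 24.2 to 26.9 in KSL-B6, KSL-Mixed and KSL-ETO. The part of other cell types in the change of hsa-miR-449 was not tested.

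**Figure D3:**
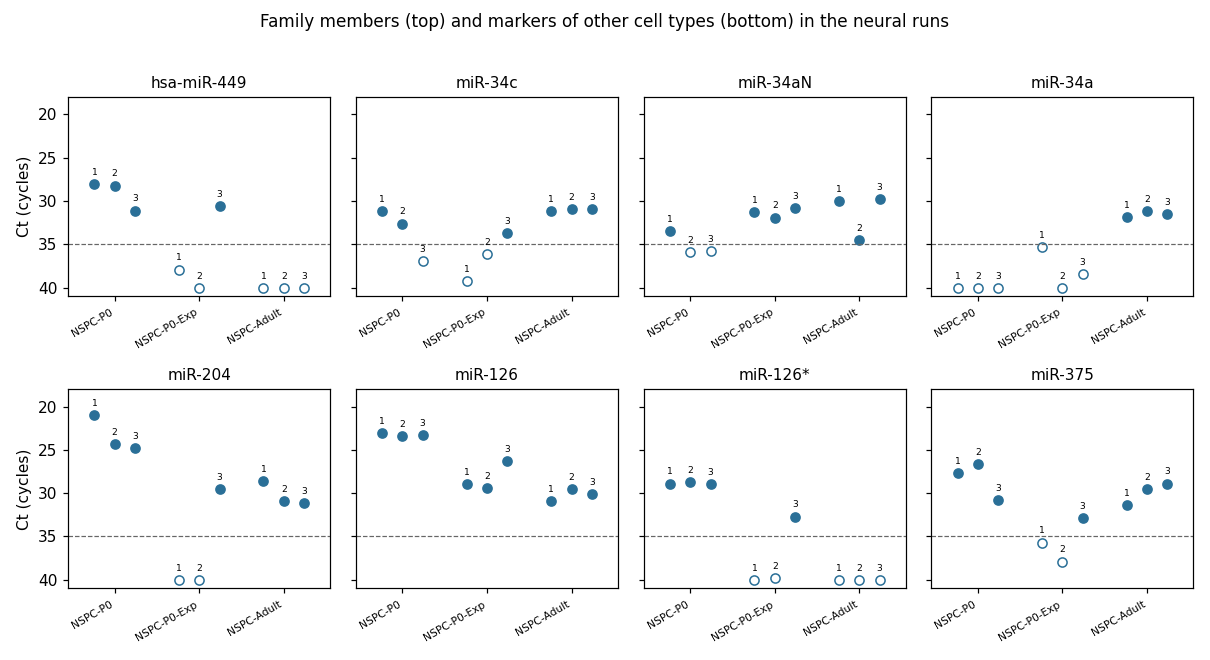
Ct (y axis, inverted) of 4 family members (top row) and of markers of choroid plexus (miR-204), endothelium (miR-126, miR-126*) and epithelium (miR-375) (bottom row) in the 9 neural runs, numbered by replicate, with Ct 35 dashed and open points undetected. hsa-miR-449 and the 4 markers are high in NSPC-P0, and NSPC-P0-Exp run 3 lies above runs 1 and 2 for each of them.

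Among the p53-linked assays 5 were tested between NSPC-P0-Exp and NSPC-P0, 0 were higher and 3 lower, with a median of -1.13 against -0.23 over all tested assays. The 3 were miR-143, at -2.65 ± 0.28 or lower (SE, limma adjusted p = 0.00146), miR-145 at -2.03 ± 0.27 (adjusted p = 0.00330) and miR-125b at -1.13 ± 0.14 (adjusted p = 0.00260). miR-143 and miR-145, whose processing p53 is known to enhance, are also markers of mesenchymal cells. miR-34aN, the tested member of the miR-34 branch, ran the other way.

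Adult and expanded neonatal neurospheres differed in the miR-34 branch. Both were cultured, but they differ in the age of the mice and in how the spheres were derived, which cannot be told apart here. Of the 3 members tested, miR-34a and miR-34c were higher in NSPC-Adult, where 40.9% of 132 assays were called. miR-34a was at least 2.74 ± 0.16 log2 units higher (SE, n = 3 and 3, limma adjusted p = 0.000551) and miR-34c 2.89 ± 0.33 (SE, limma adjusted p = 0.00236), and neither overlapped. NSPC-P0-Exp missed miR-34a in every run and miR-34c in runs 1 and 2, so both entered the test only through NSPC-Adult. The detection rule thus fixed the direction of miR-34a. miR-34aN gave -0.66 ± 1.32 (SE, limma adjusted p = 0.739), a value set by NSPC-Adult run 2, without which it was 0.80 (adjusted p = 0.131). The calls for miR-34a and miR-34c were lost with the limit at Ct 32 and with all 12 groups in 1 fit. The samples of NSPC-P0-Exp serve in this comparison and in that with NSPC-P0. Cell type markers moved here too: neural miR-128a was higher by 3.33 ± 0.60 (SE, limma adjusted p = 0.00937), epithelial miR-375 by 3.69 ± 0.86 (adjusted p = 0.0221) and so were both tested mesenchymal assays, miR-143 and miR-145, while blood mmu-miR-155 was lower, at -1.37 ± 0.32 (adjusted p = 0.0230). Their part in the result was not tested.

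The p53-linked assays tested between NSPC-Adult and NSPC-P0-Exp numbered 7, of which 3 were higher and 0 lower, with a median of 0.09 against 0.46 over all tested assays. These were miR-143 at 1.94 ± 0.26 or more (SE, limma adjusted p = 0.00399), miR-145 at 1.79 ± 0.41 (adjusted p = 0.0217) and mmu-miR-192 at 0.80 ± 0.13 or more (adjusted p = 0.00722).

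Across tissues, the 9 neural samples were set against 13 of normal blood and muscle. Of the 5 members 4 gave a p-value, and hsa-miR-449 and miR-34a were higher, where 62.7% of 169 assays were called, 7 of the 169 being constant at the floor. hsa-miR-449 was 1.64 ± 0.32 log2 units higher (SE, n = 9 and 13, limma adjusted p = 0.000211), with every blood and muscle sample at the floor and NSPC-Adult there too, so the groups overlapped. miR-34a differed by 0.12 ± 0.05 (SE, limma adjusted p = 0.0462), a call that was lost on leaving out any of 16 of the 22 samples singly. Of the neural groups only NSPC-Adult detected it. All 4 Myoblast runs detected it too, at Ct 33 to 34.4, but those values lay at the common floor in this fit. miR-34aN gave -0.41 ± 0.46 (adjusted p = 0.435) and miR-34c -0.23 ± 0.17 (adjusted p = 0.240) beside the Myoblast values given above, and miR-34cN was at the floor throughout. Of 9 p53-linked assays tested here 3 were higher and 1 lower.

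**Figure D4:**
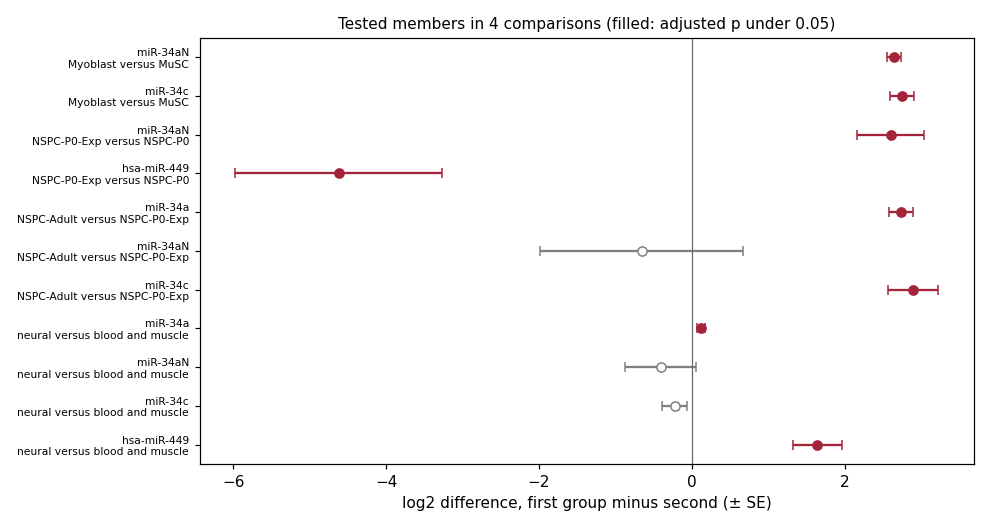
Log2 difference (x axis, first group minus second) with its SE for each member that gave a p-value, by comparison (y axis). Filled points have an adjusted p under 0.05: miR-34aN and miR-34c lie at 2.64 and 2.74 for Myoblast, hsa-miR-449 at -4.62 for NSPC-P0-Exp, and miR-34a and miR-34c at 2.74 and 2.89 for NSPC-Adult; values against a group at the floor are bounds.

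In blood and leukaemia no member was detected in every run of any population, so none entered the 7 comparisons there. With the detection limit at Ct 38 miR-34aN could be tested. It was lower in MLL-LSC than in KSL-B6, at -2.77 ± 0.46 or lower (SE, n = 3 and 3, limma adjusted p = 0.00400), with no overlap, where 62.2% of assays were called. MLL-LSC runs 1 and 2, at Ct 38.3 and 39.3, were still set to the floor, which makes the difference a bound and its SE too small. KSL-B6 itself read only 34.2 to 35.6. Against LT-HSC the difference of MLL-LSC was -4.34 ± 1.81 (SE, limma adjusted p = 0.0854) and that of KSL-B6 -3.63 ± 1.82 (adjusted p = 0.133), and neither passed beside the wide split of the LT-HSC runs. These fits held no replicate block, although the sample numbers were taken to pair MLL-LSC with LT-HSC. KSL-ETO stood 0.47 ± 0.68 above KSL-B6 (adjusted p = 0.571), KSL-Mixed 0.94 ± 0.57 above KSL-B6 (adjusted p = 0.278) and KSL-RbTKO 2.00 ± 0.61 above KSL-Mixed (adjusted p = 0.0779), none of which passed.

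The assays most like each member over the 12 population means were few in points. For miR-34aN they were miR-320 (Pearson r = 0.933), miR-193 (0.815) and mmu-miR-351 (0.796), with 4 populations above the floor. For miR-34c the closest was miR-130a (r = 0.9996), followed by mmu-miR-129-3p and mmu-miR-151 at 0.991, a value shared by 4 assays, with 2 populations above the floor. For hsa-miR-449 they were hsa-miR-433, mmu-miR-137 and miR-135a, tied at 0.996, each above the floor in 1 population. miR-34a and miR-34cN lay at the common floor in all 12 populations and have no such value.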

How the data were processed

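Each sample of 20 to 1000 cells was reverse transcribed and amplified in multiplex and read with TaqMan assays, per the labels. The deposited values are Ct values to 1 decimal, with 40 for no amplification, and whether the authors normalized them is not given in the sources used here. The 37 runs each had 459 assays under 457 distinct names, and 1 nameless value was left out. MuSC runs 1 and 2 (SD of Ct differences 0.156) and runs 3 and 4 (0.211) differed by less than other replicate pairs (0.324 to 1.09) and were averaged, which left 35 samples.

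Within each of 11 comparisons Ct was centred on the assays below Ct 35 in every run compared and floored at the lowest level measurable in all of them. Assays detected in every run of at least 1 group were tested with limma 3.58.1 (R 4.3.3; jsonlite 2.0.0 read the labels), two-sided, with Benjamini-Hochberg adjustment over all tested assays at 0.05. Assays constant at the floor got no p-value. The method was tested on simulated data with known changes of 2 log2 units. It recovered 37.3% of the tested changes for Myoblast with MuSC, 98.4% for NSPC-P0-Exp with NSPC-P0 and 91.2% for NSPC-Adult with NSPC-P0-Exp. The neural contrast recovered 69.8%, and the lowest value was 10.3%, for KSL-RbTKO with KSL-Mixed. Of the calls in each comparison 0 to 12.7% were false, the most for NSPC-Adult with NSPC-P0-Exp. A group lying wholly at the floor shows no scatter, which makes the SE of its differences too small. The number of assays detected per run, 61 to 143, limits the precision, and no control small RNA was used.

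The members, the p53-linked list and the marker lists were chosen with earlier results of these data known. Named assays were all members, called p53-linked assays in comparisons with a called member, and for each member the 3 assays with the highest Pearson r over population means. Cycles after the mean of the 28 common assays were added after the data had been seen. Sample numbers were checked by correlating residuals: in MLL-LSC against LT-HSC the 3 same-numbered pairs had r between 0.159 and 0.327 and every sample matched its own number best, so that numbers were taken to pair these samples. The alternatives tried were a detection limit of Ct 38 or Ct 32, unscaled values, quantile normalization, a replicate block, no detection filter, a single fit of all groups, every MuSC run as its own sample and leaving out each sample.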

Additional observations from a re-analysis of the deposited data

How the results depend on the processing

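With no setting changed, 2 members were called in each of the comparisons of Myoblast with MuSC, NSPC-P0-Exp with NSPC-P0, NSPC-Adult with NSPC-P0-Exp and neural with blood and muscle. For Myoblast with MuSC the number was 0 at Ct 32 and 4 at Ct 38, with quantile normalization and with no scaling. For NSPC-P0-Exp with NSPC-P0 it was 0 at Ct 32, 1 at Ct 38, with no scaling, with all assays tested and with all 12 groups in 1 fit, and 1 to 3 without single samples. For NSPC-Adult with NSPC-P0-Exp it was 0 at Ct 32 and with all 12 groups in 1 fit. For neural with blood and muscle miR-34a, hsa-miR-449 and, in the lower direction, miR-34cN were called at Ct 38. The number there was 1 at Ct 32, 4 with no scaling and 1 to 2 without single samples. It was 0 to 1 without single samples for KSL-ETO with KSL-B6 (1 without KSL-ETO replicate 1) and for MLL-LSC with KSL-B6 (1 without KSL-B6 replicate 2), and 1 at Ct 38 for the latter. Each of these replicates was the 1 of its group that missed miR-34aN (Ct 36 and 35.6), and without it the assay entered the test. Over all settings the panel's called assays numbered 53 to 112 for Myoblast, 37 to 69 for NSPC-P0-Exp with NSPC-P0 and 38 to 86 for NSPC-Adult. They numbered 86 to 133 for the neural contrast, 65 to 99 for KSL-ETO and 44 to 97 for MLL-LSC with KSL-B6. At Ct 32 the common floor lies higher by construction, and the differences became 0 for both members called in Myoblast, 0 for miR-34a and 0.17 for miR-34c in NSPC-Adult. The all-group fit raises the floor to that of KSL-RbTKO.

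The log2 difference of hsa-miR-449 between NSPC-P0-Exp and NSPC-P0 kept its direction and ranged from -6.58 to -2.56, with adjusted p up to 0.146, and was called in 4 of 13 alternatives. That of miR-34aN there was 0.24 at Ct 32 (adjusted p = 0.268) and 0.28 in the all-group fit (adjusted p = 0.639). Between NSPC-Adult and NSPC-P0-Exp, miR-34aN turned from -0.66 to 0.26 at Ct 32 and to 0.21 in the all-group fit, and ranged from -1.43 to 0.80 without single samples. In neural against blood and muscle, miR-34aN turned to 0.17 at Ct 38 and 0.44 with no scaling, and miR-34c to 0.75 at Ct 38, 0.46 with quantile normalization and 0.76 with no scaling (adjusted p = 0.0441). The causes of these turns were not tested.

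With the replicate block, where the numbers did not pair the samples (correlations of -0.0700 to 0.0244 for NSPC-P0-Exp with NSPC-P0 and -0.0912 to -0.0138 for NSPC-Adult with NSPC-P0-Exp, 1 and 0 of 3 samples correlating best with their own number), NSPC-P0-Exp with NSPC-P0 gave 1 member (hsa-miR-449 adjusted p = 0.146) and 37 assays in place of 59. NSPC-Adult with NSPC-P0-Exp kept its 2 calls. In the paired MLL-LSC and LT-HSC no member was tested, so the block could not change a member call there. No block could be fitted for MuSC, whose runs were averaged, for KSL-Mixed or for the neural contrast. Over the panel, leaving out NSPC-P0-Exp replicate 3 gave 86 called assays in place of 54 for NSPC-Adult. The number of assays detected, fewest in KSL-RbTKO and MuSC, limits what can be said of low members there.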
